A study of Mus musculus with 22 samples.

Results

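The genes followed here were 10 markers of brain macrophages: P2ry12, Cx3cr1, Csf1r, C1qa, C1qb, C1qc, Mrc1, Pf4, Lyve1 and Cd163. They were picked by symbol and not by a cut on measured values, though earlier results of these data were known. They were 10 of the 55376 genes in every count table of the series. P2ry12 and Cx3cr1 stood for microglia, Mrc1, Pf4 and Lyve1 for macrophages of the meninges and other borders of the nervous system, and Csf1r and the C1q genes for both. The series measured polyA RNA from FACS-sorted cells of mouse embryos at E12.5. Macrophages were not a sorted population: endothelial cells were isolated by a Kdr-driven Cherry reporter and motor neurons by an ISL1-driven GFP reporter, and the source of the marker RNA in those sorts was not tested.

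Microglia are the macrophages of the nervous system parenchyma, and border macrophages live in the meninges and around vessels. Both arise largely from yolk sac progenitors, and both need signalling through CSF1R, the receptor for the growth factors CSF1 and IL34. P2RY12 is a purinergic receptor of ramified microglia, CX3CR1 is the receptor for the neuronal chemokine CX3CL1, and C1QA, C1QB and C1QC are the chains of the complement initiator C1q. MRC1 is the mannose receptor CD206, PF4 is the chemokine platelet factor 4, LYVE1 binds hyaluronan and also marks lymphatic endothelium, and CD163 is the scavenger receptor for haptoglobin-bound haemoglobin.

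The regional series held 10 wild-type (WT) libraries from the spinal cord parenchyma and the surrounding meninges, 5 endothelial batches of each. The cord tissue was ventral cord in batches 1 to 3 and whole cord in batches 4 and 5, so dissection and batch cannot be told apart within the cord samples. The knockout series held endothelial cells and motor neurons, WT and Plxnd1 knockout (KO), sorted from spinal cord together with its meninges after tissue of each genotype was pooled. Levels are not compared between the series because reads were counted with different settings. Where p-values are given they measure the spread between batches.

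Library totals ran from 15685784 to 27035395 counts over the 21 libraries used. The table for WT endothelial batch 2 held the same value as KO endothelial batch 1 at every one of 55376 genes and was not used, which left 2 WT endothelial libraries (batches 1 and 3), 3 KO endothelial libraries, 3 WT motor neuron libraries and 3 KO motor neuron libraries. Endothelial markers were present where the labels put them: the summed level of 10 endothelial genes was 1659 to 3798 CPM (counts scaled to a common library size) in spinal and 939.5 to 1937 CPM in meningeal endothelial libraries. In the knockout series it was 511 to 1212 CPM in endothelial libraries and 12.1 to 33.1 CPM in motor neurons. Genes of other cell types were also measured in the endothelial sorts, and the source of that RNA was not tested. The summed level of 8 fibroblast genes was 837 to 1459 CPM in the spinal and 8645 to 11607 CPM in the meningeal libraries. Within the knockout series it was 8644 to 10431 CPM in endothelial libraries and 159 to 266 CPM in motor neurons.

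The first comparison asked how endothelial sorts from the cord and from the meninges differed. The microglial genes P2ry12 and Cx3cr1 were higher in the cord libraries, the border genes Mrc1, Pf4, Lyve1 and Cd163 were higher in the meningeal libraries, and Csf1r and the C1q genes, used by both kinds of macrophage, did not pass the test in edgeR. Of the 10 genes, 6 passed, 2 higher and 4 lower in the cord. Among all 16213 genes tested 47.8% passed, 24.8% higher and 23.0% lower, so a call by itself was common in this comparison. DESeq2 also called Csf1r and C1qa, with adjusted p of 0.0221 and 0.0327, where 8266 of the 16213 genes passed. In bulk samples, fewer cells of a type and less RNA per cell cannot be told apart.

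P2ry12 (mm10 chr3:59216272-59262871, minus strand) was measured at 112, 200.1, 158, 264 and 315 CPM in spinal batches 1 to 5. In meningeal batches 1 to 5 it was measured at 19.5, 13.1, 9.45, 16.3 and 16.1 CPM. The lowest cord library was thus well above the highest meningeal one, and the cord values were lowest in batch 1. The group means were 209.9 ± 81.3 CPM (SD, n = 5) and 14.9 ± 3.80 CPM (SD, n = 5), a ratio of 14.1. The fitted log2 fold change was 3.81 ± 0.29 (SE), with an adjusted p of 7.51e-07 (edgeR quasi-likelihood test, Benjamini-Hochberg).

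Cx3cr1 (chr9:119901616-120069879, minus strand) moved the same way by less. Its levels were 230.02, 359, 296, 576 and 622 CPM in spinal batches 1 to 5. The meningeal levels were 149.9, 156, 117, 222 and 168 CPM. The groups did not overlap, but the lowest cord value lay just above the highest meningeal value. The means were 417 ± 173 CPM in the cord and 163 ± 38.3 CPM in the meninges (SD, n = 5 each), with a log2 fold change of 1.36 ± 0.27 (SE) and an adjusted p of 0.0012 (edgeR).

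Csf1r (chr18:61105572-61132149, plus strand), the growth factor receptor of macrophages, was measured at 318, 493, 407, 1083.5 and 1031 CPM in the 5 spinal libraries. It was measured at 357, 325, 291, 519 and 389 CPM in the 5 meningeal libraries. The groups overlapped, because spinal batches 1 to 3 lay among the meningeal values and only the whole-cord batches 4 and 5 lay above them. The log2 fold change was 0.83 ± 0.33 (SE) with an adjusted p of 0.0537 (edgeR), which missed the threshold of 0.05. With batch as a block the adjusted p was 0.0325, a call, where 45.2% of all genes passed.

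The 3 C1q genes lie side by side on the minus strand of chromosome 4 within 18.7 kb, C1qb at 136880129-136886187, C1qc at 136889804-136893065 and C1qa at 136895917-136898803. C1qa was measured at 99.1, 158, 130.2, 408 and 385 CPM in spinal batches 1 to 5 and at 137, 108, 108, 157 and 145 CPM in the meningeal batches. The regions overlapped: ventral batches 1 and 3 lay within or below the meningeal range, ventral batch 2 lay just above it, and the whole-cord libraries lay far above it. C1qb had a spinal mean of 239.8 ± 138 CPM and a meningeal mean of 168 ± 21.8 CPM (SD, n = 5 each). C1qc had means of 258 ± 148 CPM and 158 ± 31.3 CPM (SD, n = 5 each). The log2 fold changes were 0.85 ± 0.36 for C1qa, 0.52 ± 0.32 for C1qb and 0.71 ± 0.33 for C1qc (SE), with adjusted p of 0.0678, 0.21 and 0.099 (edgeR), so none of the 3 passed. In batches 1 to 3 alone the value for C1qb was -0.26, with an adjusted p of 0.298.

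Mrc1 (chr2:14229392-14332057, plus strand) was measured at 87.0, 51.5, 56.9, 47.3 and 54.5 CPM in spinal batches 1 to 5. In the meningeal batches the levels were 592, 696, 446, 1029.8 and 745 CPM. Spinal batch 1 stood above the other cord libraries, yet every cord library was far below every meningeal one. The means were 59.5 ± 15.8 CPM and 702 ± 216 CPM (SD, n = 5 each), 11.8 times higher in the meninges, and the log2 fold change was -3.56 ± 0.25 (SE) with an adjusted p of 3.67e-07 (edgeR).

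Pf4 (chr5:90772435-90773383, plus strand), which platelets also carry, was measured at 10.8, 3.22, 8.98, 3.46 and 4.29 CPM in the cord. It was measured at 131, 87.7, 76.2, 128 and 95.5 CPM in the meninges. Batches 1 and 3 were the highest cord libraries, and no cord library came near a meningeal one. The meningeal mean was 16.9 times the cord mean, and the log2 fold change was -4.07 ± 0.34 (SE) with an adjusted p of 1.45e-06 (edgeR). Of 12 platelet genes, 6 had enough counts for the test and 0 passed it in either direction, where 47.8% of all genes passed. Their median log2 fold change was 0.37, against 0.01 over all genes tested.

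Lyve1 (chr7:110850607-110863239, minus strand) was measured at 20.2, 3.11, 8.63, 2.42 and 2.33 CPM in spinal batches 1 to 5. In the meningeal batches it was measured at 272, 228, 176, 391 and 272 CPM. Spinal batches 1 and 3 were again the higher cord libraries. The means were 7.33 ± 7.64 CPM and 268 ± 79.5 CPM (SD, n = 5 each), and the log2 fold change was -5.19 ± 0.59 (SE) with an adjusted p of 1.51e-05 (edgeR). Lyve1 also marks lymphatic endothelium, and its part in these levels was not tested. Prox1, a lymphatic identity factor that neural cells also use, was higher in the cord at 33.5 ± 8.65 CPM against 7.77 ± 0.979 CPM (SD, n = 5 each). Of 7 lymphatic genes tested, Reln, Prox1, Flt4 and Pdpn were higher in the cord and Maf and Nr2f2 lower. Over all genes tested 24.8% passed as higher and 23.0% as lower. Maf is also on the border macrophage list. The 8 listed genes summed to 504 CPM in the cord and 499 CPM in the meninges. In the knockout series they summed to 670 CPM in WT endothelial and 577 CPM in WT motor neuron sorts. The list thus does not single out lymphatic cells and cannot say where the Lyve1 RNA came from.

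Cd163 (chr6:124304656-124330527, plus strand) was near the detection limit. The spinal libraries held 0, 3, 0, 0 and 2 counts and the meningeal libraries 32, 38, 12, 87 and 56 counts. Every meningeal library exceeded every cord library. Summed over libraries, 225 counts stood against 5, a depth-scaled ratio of 45.5 with an exact 95% interval of 19.2 to 141 that covers counting error only. The adjusted p was 6.56e-05 (edgeR). Of 14942 genes with a mean of at least 1 CPM, 19.7% had every spinal library above every meningeal one and 17.8% had every spinal library below, so separation of the groups was also common.

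The order of the genes was compared on a per-length scale, CPM per kilobase of exon. In the cord libraries C1qa, C1qb and C1qc led at 227, 220.4 and 214 CPM per kb, followed by Csf1r at 136, Cx3cr1 at 92.5 and P2ry12 at 86.0 CPM per kb. The border genes came last, with Mrc1 at 11.1, Pf4 at 8.78, Lyve1 at 2.53 and Cd163 at 0.0119 CPM per kb. The C1q chains lay within their spread of one another, as did Cx3cr1 and P2ry12. In the meningeal libraries C1qb at 154 and Pf4 at 148 CPM per kb led, with C1qc and Mrc1 at 131 each and C1qa at 126 CPM per kb close behind. P2ry12, at 6.10 CPM per kb, was there the lowest but for Cd163 at 0.532 CPM per kb.

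Csf1r, the gene of both macrophage kinds, gave a scale on which the other genes could be read per unit of Csf1r signal. P2ry12 had 24.4 to 40.6 counts per 100 Csf1r counts over the cord libraries and 3.14 to 5.48 over the meningeal libraries. Mrc1 had 4.37 to 27.3 counts per 100 in the cord and 153 to 214 in the meninges. On this scale the 2 groups stayed apart for both genes. Pf4 ran from 0.319 to 3.38 against 24.5 to 36.7, and Lyve1 from 0.223 to 6.33 against 60.4 to 76.3, cord before meninges. Cx3cr1 ran from 53.2 to 72.8 in the cord and from 40.1 to 48.1 in the meninges, a narrower gap. C1qb was higher in every meningeal library on this scale, at 37.7 to 52.3 counts per 100 against 33.8 to 37.3 in the cord, but the groups nearly touched. C1qc ran from 36.3 to 40.1 in the cord and from 38.2 to 48.9 in the meninges, which overlap. C1qa overlapped too, at 31.1 to 37.6 counts per 100 in the cord and 30.3 to 38.3 in the meninges. These ratios are a description and were not tested, and the share of all genes that separate on this scale was not taken.

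A border minus microglial value was taken for each library, the mean log2 CPM of Mrc1, Pf4 and Lyve1 less that of P2ry12 and Cx3cr1. It was -2.58, -5.03, -3.71, -5.70 and -5.73 in spinal batches 1 to 5. It was 2.35, 2.41, 2.44, 2.62 and 2.36 in the meningeal batches. The meningeal libraries lay close together (2.44 ± 0.11, SD, n = 5), and the cord libraries spread more widely (-4.55 ± 1.37, SD, n = 5). Spinal batches 1 and 3, nearest to the meninges on this value, also had the highest cord levels of some fibroblast genes: Lum, a collagen-binding proteoglycan gene, was at 44.6 and 45.7 CPM there, at 0.931 to 1.91 CPM in spinal batches 2, 4 and 5, and at 571 to 919 CPM in the meninges. The summed level of 8 fibroblast genes did not single them out, at 1459, 1270.1, 1030.4, 906 and 837 CPM in spinal batches 1 to 5. The part of meningeal carry-over in the cord values was not tested. With spinal batches 1 and 3 both left out, an alternative chosen after seeing the data, all 10 genes passed, where 41.1% of all genes passed: P2ry12 had a log2 fold change of 4.11, Csf1r 1.20, C1qa 1.27, C1qb 0.91, C1qc 1.10 and Lyve1 -6.69. The libraries left out were picked on a value made from these genes, so the wider differences are no separate support. Ventral batch 2 and whole-cord batches 4 and 5 remained, and the whole-cord libraries had the highest Csf1r and C1q levels.

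**Figure D1:**
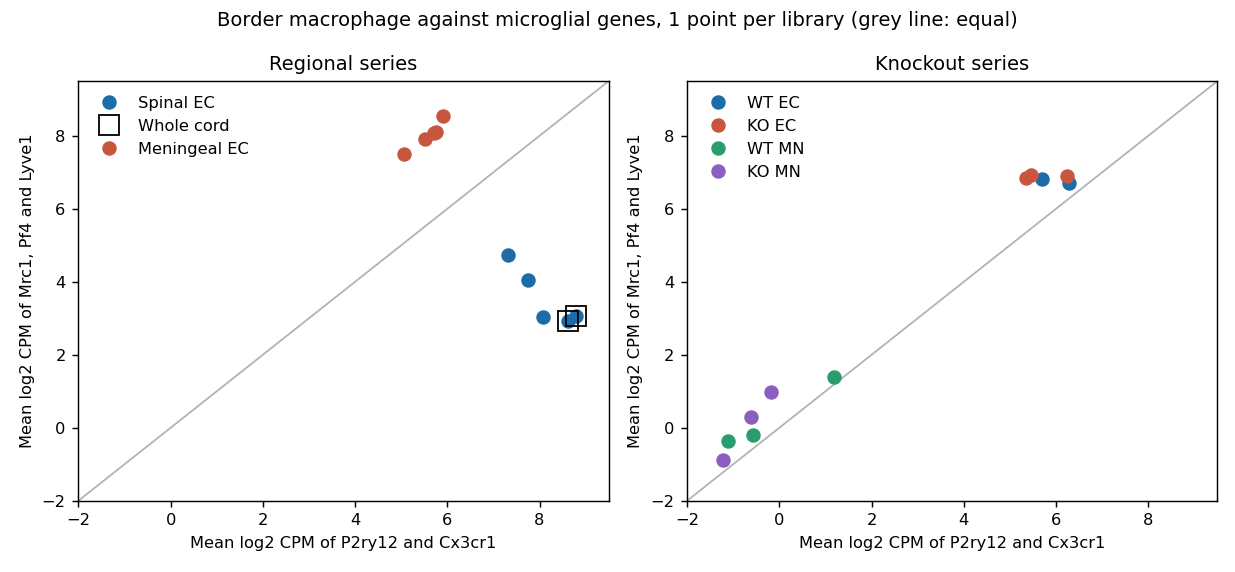
Mean log2 CPM of Mrc1, Pf4 and Lyve1 against that of P2ry12 and Cx3cr1 in each of the 21 libraries, by group and series, with a grey line where both are equal. The border minus microglial value lies between -5.73 and -2.58 in cord and between 2.35 and 2.62 in meningeal libraries. In the other series, of cord with meninges, it lies between 0.44 and 1.49 in endothelial and between 0.21 and 1.18 in motor neuron libraries.

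Csf1r, the C1q genes and the microglial pair were higher in the whole-cord than in the ventral-cord libraries, a difference within the cord that was not itself tested. Csf1r averaged 1057 ± 36.9 CPM (SD, n = 2) in whole cord and 406 ± 87.2 CPM (SD, n = 3) in ventral cord, 2.61 times apart. C1qa, C1qb and C1qc were 3.07, 2.76 and 2.74 times higher in whole cord, Cx3cr1 2.03 times and P2ry12 1.85 times, and no ventral library reached a whole-cord library for any of these 6 genes. The same separation was common: 26.3% of 14691 genes had every whole-cord library above every ventral-cord one. Mrc1, Pf4 and Lyve1 did not share that direction, with means of 50.9, 3.88 and 2.37 CPM in whole cord against 65.2, 7.65 and 10.6 CPM in ventral cord. The meningeal libraries of the same batches differed too: batches 4 and 5 over 1 to 3 gave 1.40 times for Csf1r, 1.54 times for Mrc1, 1.28 times for C1qa and 1.05 times for C1qb.

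Whether the cord to meninges difference itself depended on the dissection was tested as an interaction, in which 0 of the 10 genes passed in edgeR and 0.547% of 17901 genes passed in all, 3582 of them having an unadjusted p under 0.05. The nearest were C1qb at -1.36 ± 0.28 (SE) on the log2 scale with an adjusted p of 0.0573 and C1qa at -1.23 ± 0.26 (SE) with an adjusted p of 0.0582 (edgeR). C1qc had -1.09 and Csf1r -0.87, with adjusted p of 0.098 and 0.13 (edgeR). DESeq2 called all 4 of these, where 7.38% of genes passed. Without spinal batch 2, edgeR called 6 of the 10, the same 4 with Pf4 and Lyve1, where 6.67% of genes passed. In the cord to meninges comparison within batches 1 to 3 alone, P2ry12, Cx3cr1, Mrc1, Pf4, Lyve1 and Cd163 passed, where 43.2% of genes passed, with log2 fold changes of 3.44 for P2ry12, 1.03 for Cx3cr1, -3.18 for Mrc1, -3.71 for Pf4 and -4.44 for Lyve1. Within batches 4 and 5 alone all 10 passed, where 53.8% of genes passed, and Csf1r had 1.21, C1qa 1.38, C1qb 1.15 and C1qc 1.20.

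Over the 10 regional libraries the C1q genes followed one another closely. Pearson's r of log2 CPM was 0.993 for C1qa with C1qc, 0.972 for C1qb with C1qc and 0.964 for C1qa with C1qb. The libraries fall into region and dissection clusters and share library composition, so these values describe the 10 libraries only. Per length, the 3 chains made up 33.7%, 33.6% and 32.7% of summed C1q signal in the cord, in the order C1qa, C1qb, C1qc. In the meninges the shares were 30.6%, 37.7% and 31.7%, so C1qb held the largest mean share there.

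Promoter windows of 300 bases, 250 before and 50 after the RefSeq start (GRCm38.p6), were on hand for 7 of the 10 genes: P2ry12, Cx3cr1, C1qb, C1qc, Mrc1, Pf4 and Cd163. They were searched on both strands for AGGAAGT, a core of sites bound by the myeloid factor PU.1 and its ETS relatives, and for TGCTGA, a half-site of MAF factors. Both motifs were chosen after the sequences were on hand. The windows of 4 genes are shown: the cord gene with the widest difference, the C1q genes that had a window and a meningeal gene. All 4 hold the first motif, and the windows of Cx3cr1 and Cd163, which hold neither motif, are not shown. Capitals mark the motifs, and the first of them reads ACTTCCT where it lies on the strand opposite to the gene.
P2ry12: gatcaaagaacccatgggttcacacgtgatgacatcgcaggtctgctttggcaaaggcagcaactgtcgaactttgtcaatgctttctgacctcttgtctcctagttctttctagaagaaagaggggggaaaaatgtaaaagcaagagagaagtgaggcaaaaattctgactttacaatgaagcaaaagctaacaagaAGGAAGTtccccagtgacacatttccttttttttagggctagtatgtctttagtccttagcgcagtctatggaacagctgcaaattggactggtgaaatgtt
C1qb: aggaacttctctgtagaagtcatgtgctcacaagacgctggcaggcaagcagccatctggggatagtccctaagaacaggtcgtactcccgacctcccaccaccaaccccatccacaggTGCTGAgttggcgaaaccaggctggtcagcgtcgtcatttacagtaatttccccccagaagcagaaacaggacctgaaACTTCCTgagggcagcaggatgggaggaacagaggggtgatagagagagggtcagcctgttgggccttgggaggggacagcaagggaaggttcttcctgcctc
C1qc: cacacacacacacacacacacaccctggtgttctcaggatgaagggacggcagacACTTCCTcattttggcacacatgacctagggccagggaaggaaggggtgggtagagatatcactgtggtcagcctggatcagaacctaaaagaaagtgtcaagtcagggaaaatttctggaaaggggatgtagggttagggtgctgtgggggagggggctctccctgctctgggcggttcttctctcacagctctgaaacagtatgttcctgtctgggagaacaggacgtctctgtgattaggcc
Pf4: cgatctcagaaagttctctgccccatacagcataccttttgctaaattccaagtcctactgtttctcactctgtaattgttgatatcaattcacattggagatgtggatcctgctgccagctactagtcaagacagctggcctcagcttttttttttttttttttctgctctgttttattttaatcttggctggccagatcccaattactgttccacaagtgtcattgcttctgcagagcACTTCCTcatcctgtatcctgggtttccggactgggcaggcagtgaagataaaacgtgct
The windows are chr3:59262936-59263235, minus strand, for P2ry12; chr4:136886151-136886450, minus strand, for C1qb; chr4:136892865-136893164, minus strand, for C1qc; and chr5:90772185-90772484, plus strand, for Pf4. AGGAAGT occurred in 5 of the 7 windows, with its first base 52 bases before the start in P2ry12, 53 in C1qb, 195 in C1qc, 211 in Mrc1 and 10 in Pf4. It was in 9.35% of 32851 mouse windows of this length. TGCTGA was in the C1qb window only, 131 bases before the start, and in 19.5% of all windows. The first motif thus occurred in genes higher in the cord, in genes higher in the meninges and in genes that passed in neither direction. A match is a run of letters and not a measured site.

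Other macrophage genes were read from lists chosen with earlier results of these data known. Of 10 other microglial genes, 7 were higher and 2 lower in the cord, with a median log2 fold change of 2.01. Over all genes tested 24.8% passed as higher and 23.0% as lower. Siglech, a sialic acid receptor, had 3.24 and Sall1, a transcription factor of microglial identity, 1.91. P2ry13 had 2.31, Gpr34 2.30, Slc2a5 2.11 and Trem2 1.53. Tmem119 and Olfml3 went the other way, at -0.88 and -1.24. Tmem119 averaged 50.3 ± 21.8 CPM in the cord and 92.5 ± 11.5 CPM in the meninges (SD, n = 5 each). Fcrls, an Fc receptor-like gene, did not pass, at 0.83 with an adjusted p of 0.0675 (edgeR).

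All 11 tested of 12 other border macrophage genes were lower in the cord, with a median log2 fold change of -3.73 against 0.01 over all genes. Of all genes tested, 23.0% passed as lower. F13a1, the coagulation factor XIII A subunit, had -4.96 and averaged 13 ± 8.49 CPM in the cord and 404 ± 87.3 CPM in the meninges (SD, n = 5 each). The lectin genes Mgl2 and Clec10a had -4.85 and -4.77, the chemokine gene Ccl24 -4.44, the folate receptor gene Folr2 -4.18, and the phosphatidylserine receptor gene Timd4 -3.73. Dab2, an endocytic adaptor, had -3.28, Cd36 -3.08, Ms4a7 -2.30, Stab1 -1.65 and Maf -1.34. Stab1, Maf and Cd36 are also used by endothelial cells.

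Of 20 genes shared by macrophages and other myeloid cells, 8 were higher and 2 lower in the cord, with a median of 0.47. Of all genes tested 47.8% passed, so this count was near the share over all genes. Itgam, the CD11b integrin, had 2.89 and Ctss, a lysosomal protease, 2.54, followed by Cd33 at 2.01, Itgb2 at 1.16, Ptprc at 1.15, Laptm5 at 1.10, Irf8 at 1.07 and Aif1 at 1.04. Lyz2, lysozyme, had -1.47 and Cd14, a lipopolysaccharide co-receptor, -1.06. Spi1, which encodes PU.1, had 0.17 and did not pass. The summed level of the 20 genes was 1055 to 1580 CPM in ventral cord, 2891 to 2950 CPM in whole cord and 893 to 1563 CPM in the meninges. Neutrophil genes were lower in the cord at 3 of 3 tested of 8, S100a9 at -6.18, S100a8 at -4.97 and Mpo at -2.56.

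**Figure D2:**
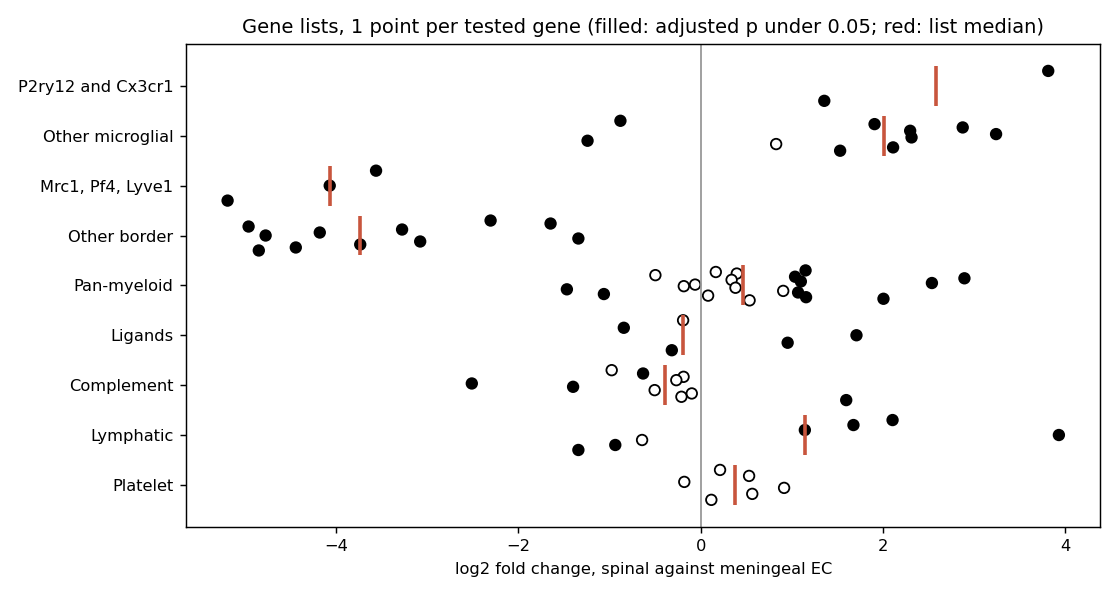
Log2 fold change, cord over meninges, of each tested gene of the listed macrophage groups, with filled points for genes that passed. The border list lies wholly below 0 with a median of -3.73, and the other microglial list has a median of 2.01 with 2 genes below 0 that passed.

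The ligands of these receptors were measured in the same sorts. Cx3cl1, which encodes the ligand of CX3CR1, was higher in the cord at 17.5 ± 3.61 CPM against 5.32 ± 1.40 CPM (SD, n = 5 each), a log2 fold change of 1.71 ± 0.20 (SE). Il34, a CSF1R ligand, was lower in the cord at 8.84 ± 3.29 CPM against 15.8 ± 1.77 CPM (SD, n = 5 each), at -0.84. Csf1, the other CSF1R ligand, did not pass at -0.19. Tgfb1, a factor that microglia depend on, had 0.96 and Tgfb2 -0.32; both passed. Among complement genes beside C1q, 1 of 10 tested was higher, Cd93 at 1.6, and 3 were lower, among them the C1 inhibitor gene Serping1 at -2.51 and the C1s protease gene C1s1 at -0.63. Over all genes tested 24.8% passed as higher and 23.0% as lower.

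Genes outside the 10 were ranked by how closely their log2 CPM followed the C1q genes or the pair Mrc1 and Pf4 over the 10 regional libraries, among 14932 genes. Nearest to the C1q mean were AB124611 (r = 0.989), Fcrls (0.986), Ctsz (0.983), Apoe (0.983), Ptpn7, Cyth4, Rgs10, Unc93b1, Ntpcr and Pld4 (0.972). Apoe, the lipid carrier of macrophages and glia, averaged 1414 CPM in the cord and 976 CPM in the meninges. With the 2 libraries farthest from the median left out, r for these 10 genes was 0.832 to 0.967. Nearest to Mrc1 and Pf4 were F13a1 (r = 0.997), Msr1 (0.995), Clec10a (0.994), nonagouti, Tff3, Ctsk, Glt8d2, Eda, Pstpip2 and Cxcl12 (0.992). Cxcl12, a chemokine gene of meningeal stroma, averaged 84.6 CPM in the cord and 1023 CPM in the meninges. The second ranking follows the split between regions, since the libraries form 2 clusters for these genes.

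The second comparison set WT endothelial sorts against WT motor neuron sorts from the same cord and meninges. All 10 genes were higher in the endothelial libraries, where 64.8% of 19266 genes passed and 33.8% were higher. Csf1r was measured at 262 and 242 CPM in WT endothelial batches 1 and 3, and at 6.34, 1.25 and 1.17 CPM in WT motor neuron batches 1 to 3. Mrc1 was measured at 236 and 254 CPM against 3.72, 1.39 and 1.26 CPM. Motor neuron batch 1 was the highest of its group for both genes. The log2 fold changes ran from 5.19 ± 0.62 for Pf4 to 6.85 ± 0.44 for Lyve1 (SE) among the 9 genes with counts in both groups. Cd163 had 59 counts over the endothelial libraries and 0 over the motor neuron libraries, at least 24.3-fold higher against a floor of 3 counts over the group, with an exact 95% counting interval that starts at 19.2.

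Motor neuron batch 1 was also apart in summed level. The 10 genes together gave 25.2 CPM in WT motor neuron batch 1 and 6.0 and 6.78 CPM in batches 2 and 3, and the 20 myeloid genes gave 29.8 CPM against 14.2 and 12.8 CPM. Without it, all 10 genes still passed, where 60.5% of all genes passed, and the 9 fold changes ran from 6.57 to 7.72 on the log2 scale. Of the lists, 12 of 12 border, 9 of 10 microglial and 20 of 20 myeloid genes were higher in the endothelial sorts, with medians of 6.52, 5.46 and 5.69. With every library kept, 33.8% of all genes passed as higher. Cx3cl1 was the ligand gene that went the other way, at 35.8 ± 6.32 CPM in motor neurons (SD, n = 3) and 8.75 ± 2.38 CPM in endothelial sorts (SD, n = 2).

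**Figure D3:**
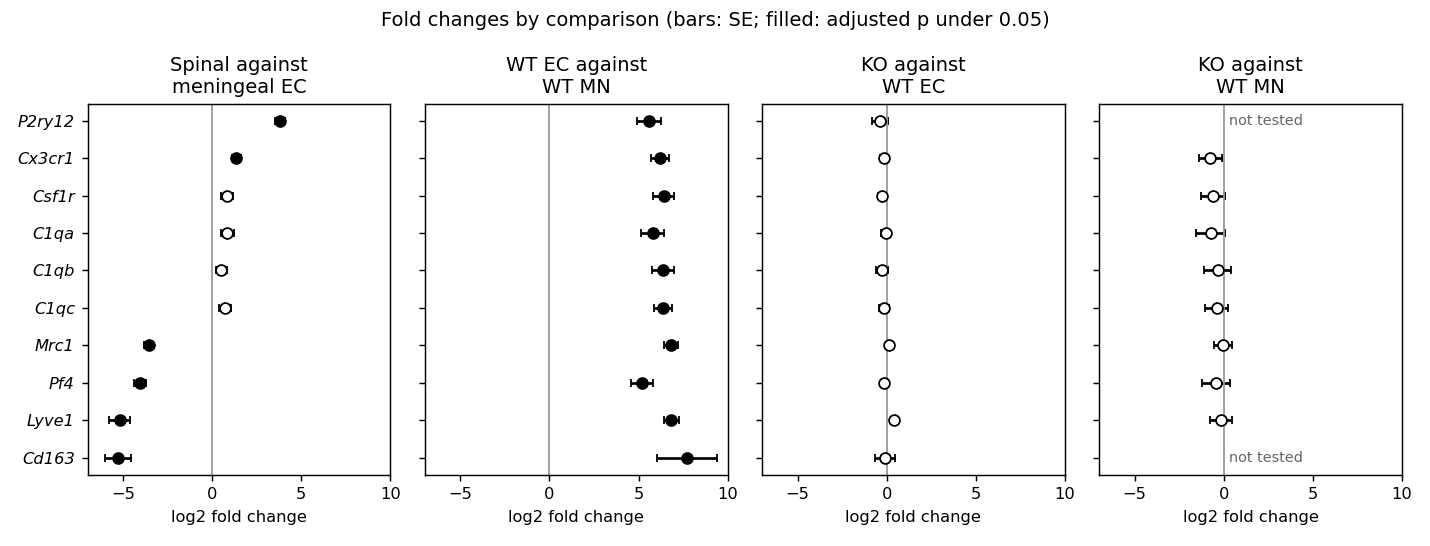
Log2 fold change and SE of each of the 10 genes in the comparisons of the study, with filled points where the adjusted p was under 0.05. Regional points spread from 3.81 for P2ry12 to -5.30 for Cd163, endothelial over motor neuron points all lie above 5, and no knockout point is filled.

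The third question was whether loss of Plxnd1, the plexin receptor for class 3 semaphorins, changed these genes. Plxnd1 itself was at 213 and 175 CPM in WT and 28.9, 15.4 and 18.7 CPM in KO endothelial libraries, and at 12.1, 5.14 and 7.79 CPM in WT and 1.79, 0.645 and 0.770 CPM in KO motor neurons. No KO library reached a WT library of its cell type, as labelled. The log2 fold changes were -3.20 ± 0.26 and -2.97 ± 0.46 (SE), with adjusted p of 0.161 and 0.80 in edgeR without a block and 5.53e-15 and 1.35e-04 with batch as a block.

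In endothelial sorts, 0 of the 10 genes passed, and 0 of all 18209 genes tested passed in edgeR (0%), with 431 at an unadjusted p under 0.05 and 34 called by DESeq2. With batch as a block, a fit with 1 residual degree of freedom, 0.989% of genes passed and again none of the 10. Lyve1 came nearest: it was measured at 117 and 132 CPM in WT batches 1 and 3 and at 165, 178 and 147 CPM in KO batches 1 to 3. The 5 libraries did not overlap between genotypes, with means of 124 ± 10.9 CPM (SD, n = 2) and 163 ± 15.7 CPM (SD, n = 3). The log2 fold change was 0.40 ± 0.12 (SE), with an adjusted p of 0.999, or 0.147 with batch as a block (edgeR). Pf4 did not overlap either, in the other direction, at 41.6 and 42.9 CPM in WT and 40.6, 38.7 and 36.5 CPM in KO, with a log2 fold change of -0.13 ± 0.11 (SE). Among 15246 genes, 5.53% had every KO library above every WT library and 7.65% every KO library below. The summed level of 12 platelet genes did not overlap between genotypes either, at 63.1 and 52.4 CPM in WT batches 1 and 3 and 89.2, 114 and 144 CPM in KO batches 1 to 3. Of 8 platelet genes tested 0 passed, and the largest value was that of Thbs1, thrombospondin 1, at 1.5 on the log2 scale (adjusted p = 0.891, or 7.81e-06 with batch as a block, edgeR). The part of Thbs1 in the summed level and the source of that RNA were not tested.

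The other 8 genes overlapped between genotypes. P2ry12 was measured at 45.9 and 23.4 CPM in WT batches 1 and 3 and at 41.0, 21.7 and 17.2 CPM in KO batches 1 to 3. Batch 1 was the highest in each genotype, and the KO values lay across the WT range and below it. Csf1r averaged 252 ± 14.7 CPM in WT (SD, n = 2) and 210.4 ± 60.0 CPM in KO (SD, n = 3), and Mrc1 245 ± 13 and 265 ± 19.4 CPM. Their log2 fold changes were -0.26 ± 0.22 for Csf1r and 0.12 ± 0.10 for Mrc1 (SE). C1qa, C1qb and C1qc had -0.04, -0.25 and -0.15, Cx3cr1 -0.18, P2ry12 -0.38 and Cd163 -0.09. Of the lists, 0 of 10 microglial, 0 of 12 border and 0 of 20 myeloid genes passed, with medians of -0.16, -0.17 and -0.20. The border minus microglial value was 0.44 and 1.12 in WT batches 1 and 3 and 0.66, 1.46 and 1.49 in KO batches 1 to 3.

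In motor neuron sorts, 8 of the 10 genes had enough counts for the test (not P2ry12 and Cd163) and none passed, where 0.0120% of 16695 genes passed, 190 at an unadjusted p under 0.05 and 4 in DESeq2. With batch as a block 0.0359% of genes passed, and again none of the 8. All 8 log2 fold changes lay between -0.75 and -0.06, and without WT motor neuron batch 1 all 8 lay between 0.15 and 0.93, none passing. The direction therefore rested on that library. KO motor neuron batch 1 also held RNA of liver genes, with Alb at 467 CPM against 0.27 to 0.491 CPM in the other motor neuron libraries. Its part in these values was not tested. The knockout effect did not pass as different between endothelial cells and motor neurons for any of the 10 genes, nor for any of 19266 genes (0%) in edgeR, with 352 at an unadjusted p under 0.05 and 1 in DESeq2.

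In the unstranded knockout tables, reads from overlapping genes on opposite strands cannot be told apart. Csf1r shares 873 of its 4885 exon bases with Hmgxb3 and Cx3cr1 shares 78 of 4505 with Gm33858, while the other 8 genes share none. The regional tables were counted by strand.

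**Figure D4:**
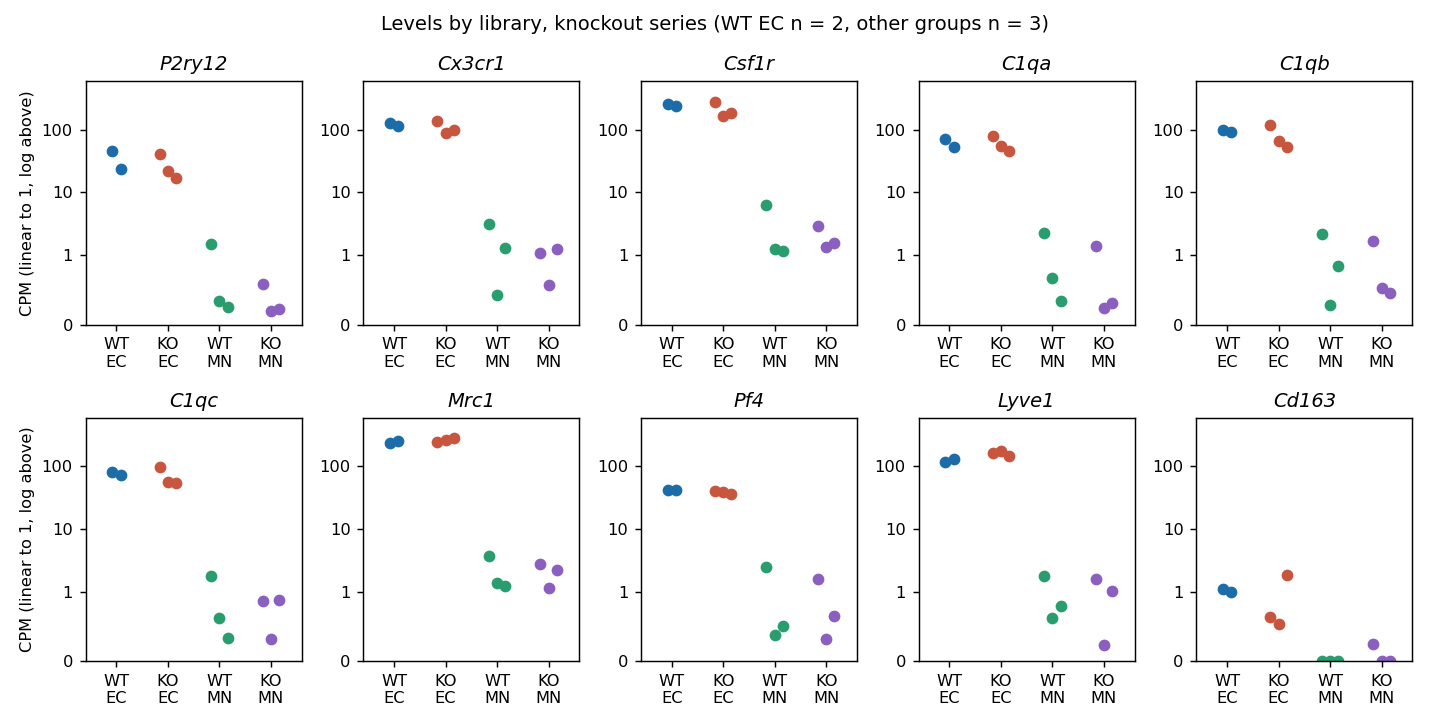
Level of each of the 10 genes in CPM in WT and KO endothelial and motor neuron libraries, on an axis that is linear up to 1 CPM and logarithmic above. Endothelial libraries lie above motor neuron libraries for all 10 genes, and WT and KO points overlap except for Lyve1 and Pf4 in endothelial cells.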

How the data were processed

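The authors deposited 1 table of raw read counts per gene and library, made with featureCounts 1.6.4 on exons of GENCODE M22 (mm10) by gene name, per the file headers: unstranded single reads in the knockout series, reverse-stranded pairs in the regional series. The submitters' processing notes name Trimmomatic 0.39, STAR 2.5.3a and DESeq2. CPM used TMM-scaled library sizes; per-length values divide by the deposited exon length. Tests used edgeR 4.0.16 (R 4.3.3; filterByExpr minimum count 10, TMM, glmQLFit and glmQLFTest), fitted over all genes of each comparison and called at a Benjamini-Hochberg adjusted p under 0.05; the contrasts of endothelial cells with motor neurons shared 1 fit of 11 libraries. The procedure was also run on simulated counts with the same spread for every gene and no batch effect. That run does not measure how many real changes the tests would miss in these data. Alternatives were DESeq2 1.42.0, RLE factors, other filters, left-out libraries and batch as a block. The labels number batches, and the block took equal numbers as pairs, though the labels do not say what such samples share. The deviations of these pairs correlated at 0.441 and 0.517 in endothelial cells and 0.358 to 0.412 in motor neurons. In the regional series they correlated at -0.273 to 0.303, so pairing was not borne out for every batch there. Log2 CPM used a prior count of 2. Of listed genes, those that passed and the most abundant were named; some are not reported here. The genes, lists and tests were chosen with earlier results of these data known. WT endothelial batch 2 was left out as identical to KO endothelial batch 1. Counts limit precision, and intervals cover counting error only.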

Additional observations from a re-analysis of the deposited data

Results flagged for a closer look

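Mrc1 in spinal endothelial batch 1 stood apart from the other 4 cord libraries, at 87.04 CPM against 47.3 to 56.9 CPM, a gap of 0.758 of the group's range. It was the only such case among 22 sets examined, each of 1 gene or of the border minus microglial value in 1 of the regional groups. Chance sets about 1 in 20 apart in this way. The same library had the highest Pf4 and Lyve1 of the cord libraries, at 10.8 and 20.2 CPM, and Lum at 44.6 CPM. Without this library the log2 fold change of Mrc1 kept its direction and its call.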

How the results depend on the processing

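The 6 regional calls (P2ry12, Cx3cr1, Mrc1, Pf4, Lyve1 and Cd163) held in all 19 alternatives, 18 for Cd163, which the filter at 5 CPM removes. The number of genes called rose from 6 to 10 in batches 4 and 5 alone and to 10 without spinal batches 1 and 3, and ran from 6 to 9 with single libraries left out. The choice to leave out spinal batches 1 and 3 was made after seeing the values of these genes. Csf1r was called in 10 of 19 alternatives, C1qa in 7, C1qc in 4 and C1qb in 2. C1qb turned to -0.26 in batches 1 to 3 alone. For the interaction with dissection, the 0 genes called became 2 with RLE factors, 4 with DESeq2, 7 with no filter and 2 with a filter at 5 CPM, and 0 to 6 with single libraries left out (6 without spinal batch 2, 2 without meningeal batch 1); Cd163 ran from -2.09 to 4.24. Over all genes its 98 calls became 305, 1321, 1780 and 236 in that order, and 0 to 1190 with single libraries left out; the cause was not tested.

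In KO endothelial cells the replicate block turned Cd163 to 0.12 and, in 1 fit of 11 libraries, Cx3cr1 to 0.051, C1qa to 0.058, Pf4 to 0.069 and Cd163 to 0.25; in KO motor neurons it turned Mrc1 to 0.021. Over all genes it moved the calls from 0 to 180 in endothelial cells (34 in DESeq2, but 2 with the block in 1 fit of 11 libraries) and from 2 to 6 in motor neurons (4 in DESeq2, 4 with no filter). The block changed no other call on the 10 genes than that of Csf1r. Single libraries left out gave log2 ranges of -0.83 to 0.21 for P2ry12, -0.30 to 0.20 for C1qa, -0.47 to 0.0065 for C1qc and -0.84 to 0.22 for Cd163 in KO endothelial cells. In KO motor neurons they gave -1.19 to 0.15 for Cx3cr1, -0.99 to 0.68 for Csf1r, -1.97 to 0.38 for C1qa, -1.18 to 0.62 for C1qb, -0.79 to 0.54 for C1qc, -0.34 to 0.63 for Mrc1, -1.21 to 0.93 for Pf4 and -0.73 to 0.42 for Lyve1. None of these was called.

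Without Pf4 the border minus microglial value was 1.46 in WT and 2.01 in KO endothelial cells and 3.12 in the meninges. With Mrc1 as the only border gene it was 1.95 in WT and 2.37 in KO endothelial cells, 1.13 in WT and 1.69 in KO motor neurons, -2.25 in the cord and 3.81 in the meninges. Motor neuron levels near 1 CPM, 2 WT endothelial libraries and the shared batch and dissection limit what these comparisons can resolve.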
